A study of Mus musculus with 10 samples.

Results

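The genes described here are 38 markers of skeletal muscle, taken from a list of contractile, calcium handling, metabolic and neuromuscular genes together with the muscle hemojuvelin gene Hfe2, and matched by symbol to the 55487 genes in the deposited tables of a mouse skin study. All 38 were found. The study sequenced RNA from whole skin of 5 wild type mice (WT) and of 5 mice whose genotype the labels write as Hamp1-KI ker (KI), with 1 library per mouse. Hamp encodes hepcidin, the hormone that restrains cellular iron export, and the series concerns its overexpression in the skin. The labels do not spell out "ker", and the sources used here do not give the strain, age, sex or body site. Mouse titles start with EAS37 (3 WT and 2 KI) or EAS42 (2 WT and 3 KI), prefixes without a stated meaning. WT 1 to WT 3, KI 1 and KI 2 carry EAS37, and WT 4, WT 5 and KI 3 to KI 5 carry EAS42.

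Mouse skin carries a thin sheet of striated muscle, the panniculus carnosus, below the dermal fat, so a piece of whole skin yields RNA of muscle fibres beside that of epidermis, hair follicles and dermis. Muscle fibres differ in the isoforms they build. Fast fibres use the myosin heavy chains Myh2 (type IIa), Myh1 (type IIx) and Myh4 (type IIb), with their own light chains, troponins and calcium pump, and slow fibres use Myh7 with a separate set of partners. Hemojuvelin is a coreceptor for bone morphogenetic proteins. In the liver it is needed for normal hepcidin expression, and skeletal muscle is another main site of its expression.

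Promoters of 4 members are shown because the values below turn on them, the neighbouring fast myosin genes Myh1 and Myh4, the creatine kinase gene Ckm and the slow myosin gene Myh7. Each run holds the 250 bases before the transcription start, 5′ to 3′ on the strand of the gene, from RefSeq on GRCm38.p6. Capitals mark E-boxes (CANNTG, the core sequence bound by myogenic factors of the MyoD family) and matches to the MEF2 motif, each searched on both strands.
Myh1, chr11:67199852-67200101, plus strand: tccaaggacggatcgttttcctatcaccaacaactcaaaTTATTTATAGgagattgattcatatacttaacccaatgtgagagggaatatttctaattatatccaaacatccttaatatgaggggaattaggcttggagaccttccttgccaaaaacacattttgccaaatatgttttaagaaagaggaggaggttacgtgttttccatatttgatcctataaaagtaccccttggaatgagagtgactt
Myh4, chr11:67237562-67237811, plus strand: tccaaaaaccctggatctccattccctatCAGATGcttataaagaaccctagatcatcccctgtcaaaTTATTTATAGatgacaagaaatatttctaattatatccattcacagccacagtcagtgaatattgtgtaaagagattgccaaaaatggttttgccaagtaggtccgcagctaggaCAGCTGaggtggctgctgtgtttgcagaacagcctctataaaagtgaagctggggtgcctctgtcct
Ckm, chr7:19410844-19411093, plus strand: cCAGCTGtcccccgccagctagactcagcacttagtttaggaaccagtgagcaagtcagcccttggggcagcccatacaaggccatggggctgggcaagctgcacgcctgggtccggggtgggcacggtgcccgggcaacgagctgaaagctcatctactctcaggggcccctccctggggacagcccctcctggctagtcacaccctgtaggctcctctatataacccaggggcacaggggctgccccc
Myh7, chr14:54994627-54994876, minus strand: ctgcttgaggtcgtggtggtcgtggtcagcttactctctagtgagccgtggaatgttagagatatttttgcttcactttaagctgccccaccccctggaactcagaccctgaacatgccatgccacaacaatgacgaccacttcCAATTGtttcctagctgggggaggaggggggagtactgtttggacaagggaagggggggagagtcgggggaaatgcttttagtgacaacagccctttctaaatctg
The MEF2 match reads TTATTTATAG in both Myh1 and Myh4, where it starts 211 and 182 bases before the transcription start. Myh4 held 2 E-boxes and Myh1 none in this window, while Ckm and the start shown for Myh7 held 1 each. Another start matched for Myh7, not shown, held 2. RefSeq promoters were matched for 30 of the 38 members, with 36 starts. Of these starts 31 (86.1%) held an E-box, against 66.2% of 32851 promoters of all genes, and 5 (13.9%) held a MEF2 match, against 2.92% of all. The 5 belong to Ttn, Pvalb, Myh1, Myh4 and Myh8, of which the myosin genes are similar neighbours and not independent. A match describes letters in the window and not a bound site.

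The label KI was checked by Hamp itself, which stood between 10.3 and 18.4 TPM in WT and between 411 and 872 TPM in KI. TPM, a length-scaled level that sums to the same total in each library, is used below for levels. Libraries held 18.96 to 26.43 M expected counts. The members took 3.66 to 6.12% of the counts in WT and 0.409 to 3.98% in KI. Summed over the 38 members, the level was 34162 to 57557 TPM in WT and 3259 to 33788 TPM in KI, so the ranges lay close together without meeting. KI 2 was the lowest library and KI 3 the highest of the KI group. The median member stood at 26.5%, 8.42%, 72.1%, 28.3% and 53.6% of its WT mean in KI 1 to KI 5, over the 34 members with enough counts to be tested. Among WT libraries the same median ran from 74.3% in WT 3 to 127% in WT 5. In KI 3, 20 of the 34 members lay inside the WT range, against 2 in KI 2, 3 each in KI 1 and KI 4, and 7 in KI 5. These levels are shares of a library. Fewer muscle fibres in the piece of skin, less RNA per fibre and more RNA of other cells cannot be told apart in bulk samples.

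**Figure D1:**
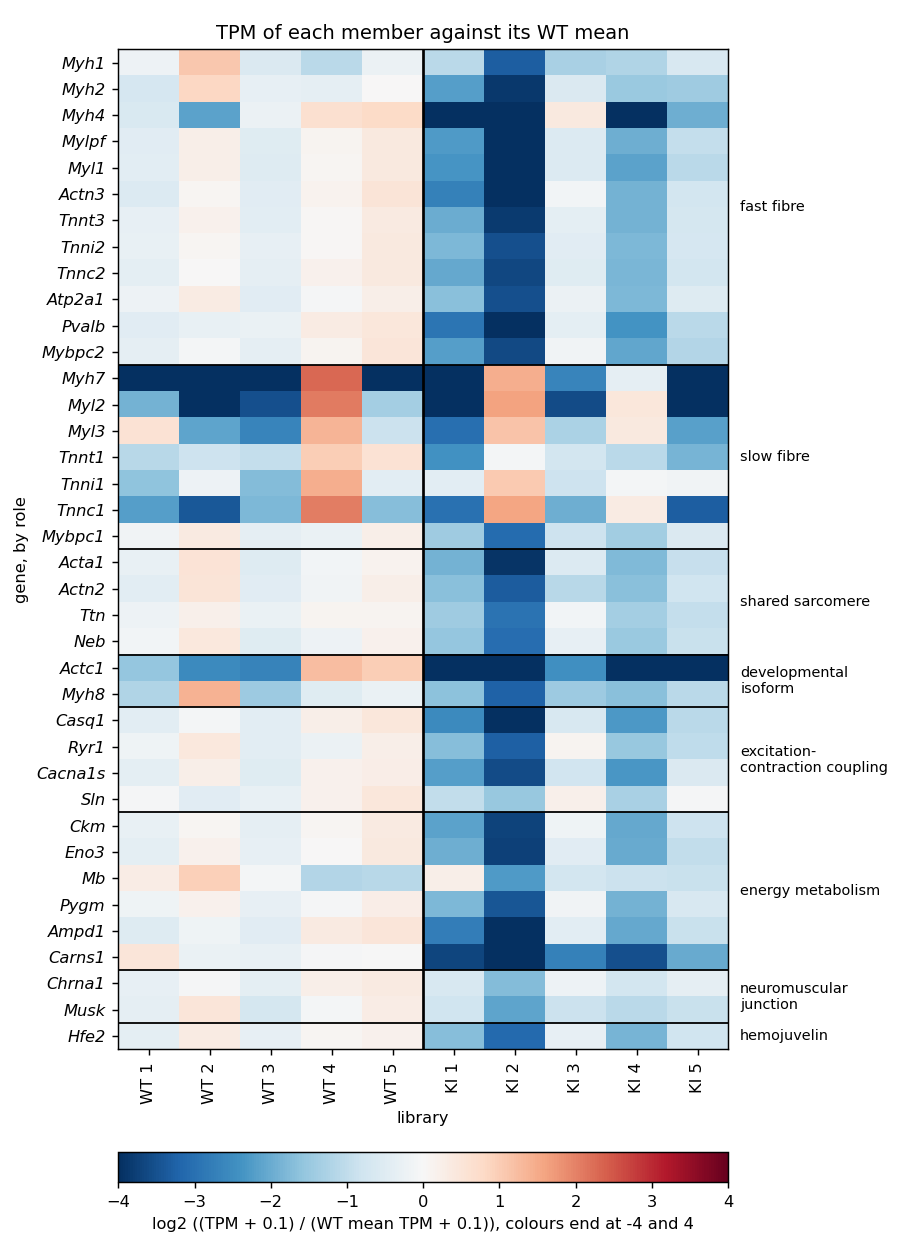
TPM of each of the 38 genes (rows, by role) in each library (columns) as log2 of its ratio to the WT mean, with 0.1 TPM added to both. Columns KI 1, KI 2 and KI 4 are blue for nearly all fast, shared and metabolic genes, KI 3 is near the WT columns for most genes but not for Carns1, and Myh7, Myl2 and Tnnc1 stand out in WT 4, KI 2 and KI 4 instead.

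KI skin was compared with WT skin to ask which muscle genes differ with the genotype. Of the 34 members tested 8 passed in the lower direction and 0 in the higher (edgeR quasi-likelihood test, Benjamini-Hochberg adjusted p under 0.05), while 15.3% of all 17321 genes tested passed as lower and 15.6% as higher. Tnni1, the only member with a positive value, had an unadjusted p above 0.05, and DESeq2 and limma-voom also called 0 members higher. The 8 are the fast myosin Myh2, the light chain Myl1, the myosin binding protein Mybpc1, the Z disc actinin Actn2, the cardiac type actin Actc1, the enolase Eno3, the carnosine synthase Carns1 and the receptor kinase Musk. The median log2 fold change of the 34 was -1.28, against -0.01 over all genes tested, and 33 of 34 had a negative value against 50.9% of all genes. All but 7 of the 34 had an unadjusted p under 0.05, as did 7508 of all 17321 genes, in either direction. Every KI library lay below every WT library in 5 of the 34 by CPM (counts scaled by library size), against 9.65% of all genes. By TPM the same held for 12 of the 34, against 10% of all genes.

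The count of 8 moved with single libraries and with the tool. It was 26 without KI 3, 13 without KI 2, 6 without WT 3, 4 without WT 1, 3 without WT 2, WT 4, KI 1 or KI 5, and 2 without WT 5 or KI 4. With the title prefix as a block it was 24, with DESeq2 25 and with limma-voom 20, and without KI 2 and KI 3 together it was 25. The share of all genes passing as lower was 19.4% with the block, 18.8% with DESeq2, 16.5% with limma-voom, 15.8% without KI 3 and 10.1% without KI 2 and KI 3. It was 11.1% without KI 2, 11.8% without WT 3 or WT 5, 11.6% without WT 1 and 14.3% without WT 2. Without WT 4, KI 1, KI 5 and KI 4 it was 12%, 10.2%, 16% and 10.5%, in that order. In the fits with 2 or 3 members passing, members passed less often than all genes. The block added 16 members to the 8, namely Mylpf, Tnnc2, Tnni2, Tnnt3, Actn3, Pvalb and Mybpc2 of the fast genes, Acta1, Ttn, Casq1, Cacna1s, Ckm, Pygm, Ampd1, Chrna1 and Hfe2. Median log2 fold changes over the 34 were -2.16 within EAS37 and -1.06 within EAS42. No member passed the test for a KI effect that differs between the prefixes (edgeR interaction, adjusted p under 0.05), and 0.866% of all genes did. An unadjusted p under 0.05 was found in 2 of 34 members and in 3066 of all 17321 genes. With 2 or 3 libraries per genotype and prefix, this does not show that the effects are alike.

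The 12 fast fibre genes summed to 28781 ± 6847 TPM in WT and 10642 ± 7735 TPM in KI (SD, n = 5 each), more than the other roles together. All 12 had negative log2 fold changes, from -1.60 to -1.06. Of the 12 genes 2 passed, Myh2 and Myl1, which is near the 15.3% of all genes that passed as lower. Counts of the other roles below stand against the same share, and these roles hold few genes. Myl1, an essential light chain of fast myosin and the most abundant of them, stood at 4124, 6489.9, 3844, 5796 and 7167 TPM in WT 1 to WT 5 and 1079, 298, 3758, 1243 and 2597 TPM in KI 1 to KI 5. KI 3 lay just under the lowest WT library and KI 2 far below all others. The log2 fold change was -1.57 with an SE of 0.54 (adjusted p = 0.049), and the call was lost under 11 of 20 alternative settings, with log2 fold changes between -2.56 and -1.29 and adjusted p between 0.00945 and 0.13. These settings change the filter, the scaling or the tool, add the title prefix or leave out libraries. Mylpf, the regulatory light chain of fast fibres, stood at 3809, 6191, 3769, 5630.1 and 6921 TPM in WT 1 to WT 5 and 1092, 301, 3599, 1351 and 2712 TPM in KI 1 to KI 5, a log2 fold change of -1.47 with an SE of 0.52 (adjusted p = 0.0551). The troponin subunits Tnnc2, Tnni2 and Tnnt3, which place calcium control on the thin filament of fast fibres, had log2 fold changes of -1.32, -1.24 and -1.29 and did not pass. Nor did the calcium pump Atp2a1 (-1.06), the calcium buffer Pvalb (-1.60), the fast actinin Actn3 (-1.23) or the fast myosin binding protein Mybpc2 (-1.36). Of these 7 and Mylpf all but Atp2a1 passed with the title prefix as a block, and all 8 passed without KI 3.

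The myosin heavy chains of fast fibres did not move in step with each other. Their genes sit side by side on chromosome 11 of GRCm38, Myh2 at chr11:67171027-67197517, Myh1 at chr11:67200052-67224575, Myh4 at chr11:67238029-67260446 and the perinatal Myh8 at chr11:67277124-67308634. Myh1 stood at 1449.9, 3535, 1113, 787 and 1398 TPM in WT 1 to WT 5 and 792, 167, 669, 723 and 1058 TPM in KI 1 to KI 5. WT 2 was by far the highest and KI 2 by far the lowest, while KI 1 and KI 5 lay inside the WT range and KI 3 and KI 4 just below it. Its log2 fold change was -1.21 with an SE of 0.50 (adjusted p = 0.0905), and without WT 2 it was -0.71. Myh4 stood at 765, 264, 1003, 1836 and 1979 TPM in WT 1 to WT 5 and 22.4, 36.6, 1544, 57.4 and 303 TPM in KI 1 to KI 5. Its KI values ran from levels far under every WT library in KI 1, KI 2 and KI 4 to a WT-like level in KI 3, and its log2 fold change was -1.55 with an SE of 1.13 (adjusted p = 0.319). Without KI 3 the value was -3.46 (adjusted p = 0.0202), and within EAS37 alone it was -4.31 (adjusted p = 0.024), over a range of adjusted p from 0.0202 to 0.475. Myh2 stood at 117, 328, 148, 144 and 189 TPM in WT 1 to WT 5 and 40.3, 12.6, 123, 66.2 and 69.7 TPM in KI 1 to KI 5. Only KI 3 reached the WT range. The Myh2 log2 fold change was -1.52 with an SE of 0.51 (adjusted p = 0.0446), and the call was lost under 11 of 20 alternative settings, with log2 fold changes between -2.65 and -0.96 and adjusted p between 0.00369 and 0.119.

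As a share of the summed TPM of Myh1, Myh2, Myh4, Myh7 and Myh8, Myh4 held 32.7, 6.31, 44.2, 65.6 and 55.3% in WT 1 to WT 5 and 2.60, 16.1, 65.9, 6.71 and 21.04% in KI 1 to KI 5. Means were 40.8 ± 22.9% in WT and 22.5 ± 25.4% in KI (SD, n = 5 each), so the groups overlapped and their difference was smaller than the spread between mice. Myh1 took up nearly all the remainder, between 28.1% in WT 4 and 91.98% in KI 1, and Myh2 stayed between 4.68% and 7.86%. The Myh4 level per Myh1, a ratio chosen after its values were seen, ranged from 7.46% in WT 2 to 233% in WT 4, and from 2.82% in KI 1 to 231% in KI 3. After KI 1 the lowest were WT 2 and KI 4, and WT 4 and KI 3 were the highest, so both genotypes were found at either end. Myh1, Myh2, Myh4 and Myh8 are similar copies. Of the 50-base words in their annotated transcripts, 24.0%, 21.9%, 18.6% and 9.97% occur in another of the heavy chain genes compared, so their split of reads is uncertain, and Myh1 and Myh2 also overlap the antisense genes Myhas and 9430073C21Rik.

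**Figure D2:**
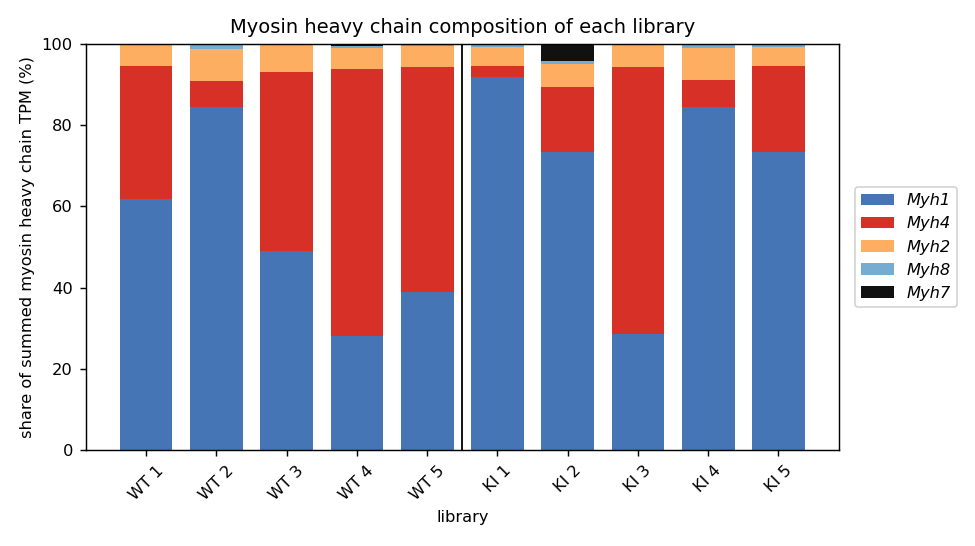
Share of each of 5 myosin heavy chain genes in their summed TPM (vertical axis, percent) in each library (stacked bars, horizontal axis). Myh4 (red) is widest in WT 4, WT 5 and KI 3 and narrowest in KI 1, WT 2 and KI 4, and Myh7 (black) is visible mainly in KI 2.

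Slow fibre genes followed a different set of libraries. Myh7, Myl2 and Tnnc1 were near the limit of detection in most mice and clearly present in WT 4, KI 2 and KI 4. Myh7, the slow and cardiac heavy chain, had 1, 0, 1, 848 and 0 expected counts in WT 1 to WT 5 and 0, 501, 7.90, 204 and 0 in KI 1 to KI 5. A count of 0 allows up to 3 counts in a library, or 0.158 CPM in the shallowest, for counting error only. Tnnc1, the slow and cardiac troponin C, had 4, 1, 6, 111 and 6 and 2, 67, 5, 30 and 1 expected counts in the same order. Myl2, the regulatory light chain that goes with Myh7, was at 14.4, 10.4 and 4.55 TPM in WT 4, KI 2 and KI 4 against at most 1.23 TPM elsewhere. Myl3, the essential light chain of slow fibres, stood at 2.78, 0.35, 0.21, 4.89 and 0.98 TPM in WT 1 to WT 5 and 0.14, 4.17, 0.71, 2.42 and 0.33 TPM in KI 1 to KI 5, highest in WT 4 and KI 2 and with WT 1 above KI 4. Both genotypes and both prefixes are thus among the libraries with slow fibre transcripts, and KI 2, the library with the least muscle RNA in all, is one of them.

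Myh7, Myl2, Myl3 and Tnnc1 had too few counts in too many libraries to be tested. Of the remaining 3, the slow troponin genes did not pass over all libraries. Tnni1 stood at 0.72, 2.08, 0.66, 6.77 and 1.78 TPM in WT 1 to WT 5 and 1.78, 5.05, 1.31, 2.28 and 2.15 TPM in KI 1 to KI 5, with WT 4 and KI 2 above the rest. It had a log2 fold change of 0.09 with an SE of 0.68 (adjusted p = 0.93), with 1.96 within EAS37 and -1.52 within EAS42. Tnnt1 stood at 5.49, 6.62, 6.10, 23.6 and 17.9 TPM in WT 1 to WT 5 and 2.17, 11.2, 7.14, 5.55 and 3.20 TPM in KI 1 to KI 5, a log2 fold change of -1.05 with an SE of 0.56 (adjusted p = 0.175), with 0.19 within EAS37 and -2.02 within EAS42. Fitted on the EAS42 libraries alone it passed (-2.03, adjusted p = 0.00905), and Tnni1 passed as higher on the EAS37 libraries alone (1.97, adjusted p = 0.0457). Without WT 4 the Tnnt1 value was -0.63. The Myh7 level per Myh4 was 25.3% in KI 2, 4.39% in KI 4 and 0.895% in WT 4, and at most 0.0285% elsewhere. Tnnc1 reached 0.253% of Tnnc2 in WT 4 and 2.62% in KI 2, and the lowest values were 0.0039% in WT 2 and 0.00741% in KI 5. Tnni1 to Tnni2, Tnnt1 to Tnnt3, Myl3 to Myl1 and Myl2 to Mylpf peaked in KI 2 as well, at 2.01%, 3.92%, 1.40% and 3.44%, and each pair overlapped between the genotypes.

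Mybpc1, called the slow type myosin binding protein though fast fibres express it too, behaved unlike the other slow genes. It stood at 379.7, 537, 325, 349 and 487 TPM in WT 1 to WT 5 and 156, 49.2, 234, 158 and 278 TPM in KI 1 to KI 5, and every KI library lay below every WT library. Its log2 fold change was -1.14 with an SE of 0.34 (adjusted p = 0.0288), and the call was lost under 6 of 20 alternative settings, with log2 fold changes between -1.64 and -0.86 and adjusted p between 0.0024 and 0.145.

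**Figure D3:**
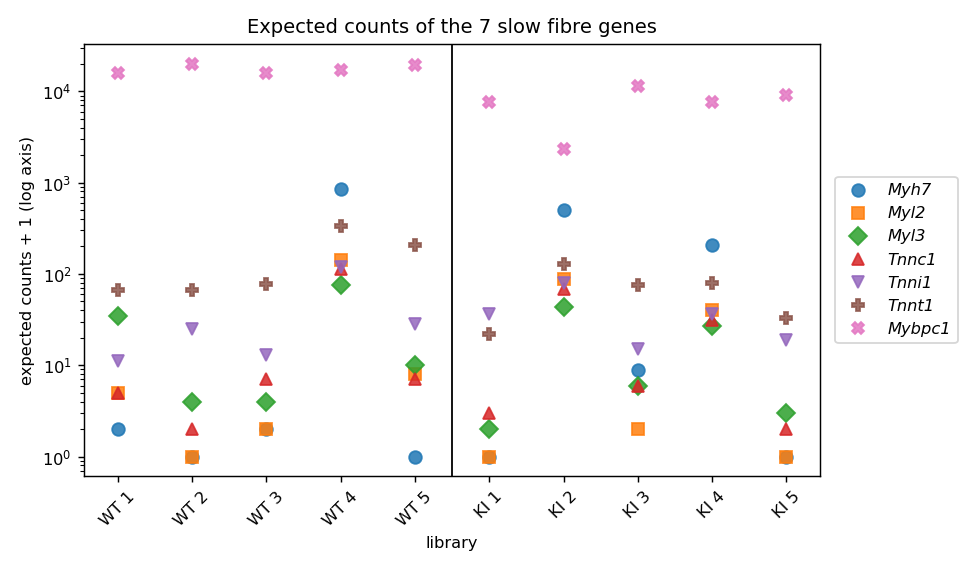
Expected counts plus 1 (log axis) of the 7 slow fibre genes in each library. Myh7, Myl2 and Tnnc1 peak in WT 4, KI 2 and KI 4, whereas Mybpc1 (crosses) is high in all WT libraries and lowest in KI 2.

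Of the 4 genes that all muscle fibres share Actn2 passed. Acta1, the actin of skeletal thin filaments and the most abundant member, stood at 7331, 13087, 6333, 8371 and 10010.5 TPM in WT 1 to WT 5 and 2440.4, 599, 6123, 2683 and 4810.4 TPM in KI 1 to KI 5. Every KI value was below every WT value by TPM, and the log2 fold change was -1.38 with an SE of 0.48 (adjusted p = 0.0519). Actn2, which crosslinks actin at the Z disc, stood at 236, 456, 232, 289 and 373 TPM in WT 1 to WT 5 and 99.5, 31.4, 147, 100.04 and 184 TPM in KI 1 to KI 5. Its groups did not overlap, and its log2 fold change of -1.44 with an SE of 0.38 (adjusted p = 0.0187) passed also without any 1 of the 10 libraries. The call was lost with no filter on low counts (-1.44, adjusted p = 0.0557) and within EAS37 alone (-1.93, adjusted p = 0.146), with adjusted p between 0.000408 and 0.146 over all settings. The giant proteins titin (Ttn) and nebulin (Neb), which set the length of the filaments, had smaller log2 fold changes of -0.94 ± 0.39 and -0.87 ± 0.38 (SE) and did not pass.

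Of 2 isoforms of developing muscle Actc1 passed. Actc1, the actin of heart and of embryonic skeletal muscle, stood at 15.2, 7.61, 6.98, 105 and 89.4 TPM in WT 1 to WT 5 and 0.4, 0.35, 8.19, 0.66 and 2.17 TPM in KI 1 to KI 5. The EAS42 mice WT 4 and WT 5 were several times higher than any other, and KI 3 overlapped WT 2 and WT 3. The log2 fold change was -4.24 with an SE of 1.25 (adjusted p = 0.0322), and the call was lost under 8 of 20 alternative settings, with log2 fold changes between -5.70 and -3.63 and adjusted p between 0.000877 and 0.0781. Myh8, the perinatal heavy chain, stood at 8.71, 53.1, 7.27, 14.4 and 16.4 TPM in WT 1 to WT 5 and 6.40, 2.05, 7.24, 6.15 and 9.32 TPM in KI 1 to KI 5. WT 2 stood far above the rest, and the log2 fold change was -1.62 with an SE of 0.60 (adjusted p = 0.0658). Without WT 2 it was -0.84 (adjusted p = 0.147). Actc1 is also a heart gene, as are Myh7, Myl2, Myl3 and Tnnc1. Of 7 cardiac markers 3 were near absent, with 3 counts of Nppa over all WT and 2 over all KI libraries, 3 and 7 of Myl7 and 30 and 17.1 of Myh6. The other 4 were expressed and went different ways. Myl4 was lower in KI (10.6 ± 3.12 TPM in WT and 5.11 ± 1.44 TPM in KI), Nppb was higher (0.77 ± 1.28 TPM in WT and 17.6 ± 6.60 TPM in KI), and Tnnt2 (13.9 ± 5.64 TPM in WT and 11.3 ± 2.41 TPM in KI) and Tnni3 (5.23 ± 1.38 TPM in WT and 6.42 ± 1.31 TPM in KI) did not pass (mean and SD, n = 5 each). The summed level of the list, 22.5 to 41.9 TPM in WT and 37.2 to 44.6 TPM in KI, holds this rise of Nppb.

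Genes that couple excitation to contraction did not pass, at 0 of 4, where 15.3% of all genes passed as lower. An unadjusted p under 0.05 was found in 2 of them (Casq1 and Cacna1s) and in 7508 of all 17321 genes. Casq1, the calcium store protein of the sarcoplasmic reticulum, stood at 517, 650.3, 515, 821 and 951 TPM in WT 1 to WT 5 and 119, 26.9, 444, 139.6 and 331 TPM in KI 1 to KI 5. Its groups did not overlap by TPM, yet with the wide spread among KI mice its log2 fold change was -1.63 with an SE of 0.57 (adjusted p = 0.0548). The voltage sensor Cacna1s had -1.30 ± 0.47 (SE), and the calcium release channel Ryr1 stood at 67.05 ± 16.6 TPM in WT and 31.3 ± 25.1 TPM in KI (SD, n = 5 each). Sln, a small inhibitor of the calcium pump, stood at 30.6, 22.8, 25.6, 35.1 and 42.9 TPM in WT 1 to WT 5 and 15.9, 10.9, 36.1, 12.7 and 30.2 TPM in KI 1 to KI 5, and its log2 fold change of -0.50 ± 0.33 (SE) was the smallest of the 4, and it was -0.76 without KI 3.

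Among 6 metabolic genes Eno3 and Carns1 passed. Ckm, the creatine kinase that buffers muscle ATP, stood at 3437, 4537, 3347, 4483 and 5511 TPM in WT 1 to WT 5 and 972, 329, 3764, 1029 and 2379 TPM in KI 1 to KI 5, a log2 fold change of -1.28 with an SE of 0.52 (adjusted p = 0.0873), with KI 3 inside the WT range. Eno3, the muscle enolase of glycolysis, stood at 747, 1093, 779, 988 and 1279 TPM in WT 1 to WT 5 and 254, 74.01, 711, 244 and 489 TPM in KI 1 to KI 5. Its log2 fold change was -1.40 with an SE of 0.48 (adjusted p = 0.0478), and the call was lost under 11 of 20 alternative settings, with log2 fold changes between -2.15 and -1.14 and adjusted p between 0.00508 and 0.163. The glycogen phosphorylase Pygm and the AMP deaminase Ampd1 had -1.13 ± 0.48 and -1.50 ± 0.62 (SE) and did not pass.

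Myoglobin, Mb, the oxygen store of oxidative fibres, did not pass. It stood at 227, 357, 174, 81.7 and 84.7 TPM in WT 1 to WT 5 and 219, 38.1, 110.04, 103 and 99.6 TPM in KI 1 to KI 5. The 3 EAS37 WT mice were high together with KI 1, and WT 4 and WT 5 were lower than every KI library but KI 2. Its log2 fold change was -0.56 with an SE of 0.51 (adjusted p = 0.435), with -0.69 within EAS37 and 0.27 within EAS42, and it was -0.17 without WT 2, -0.34 without KI 2 and -1.012 without KI 1. Per Ckm, a ratio chosen after its values were seen, Mb came to 6.61, 7.87, 5.20, 1.82 and 1.54% in WT 1 to WT 5 and 22.5, 11.6, 2.92, 9.97 and 4.19% in KI 1 to KI 5. The 3 lowest of these ratios belong to WT 5, WT 4 and KI 3, which are also the 3 libraries with the largest Myh4 share.

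Carns1, which joins histidine and beta-alanine into the dipeptide carnosine, had the smallest p of the 34 members. It stood at 91.7, 54.8, 52.9, 62.8 and 65.2 TPM in WT 1 to WT 5 and 5.04, 2.98, 9.87, 5.61 and 16.1 TPM in KI 1 to KI 5. The highest KI mouse was far below the lowest WT mouse, and KI 3, inside the WT range for 20 of the 34 members, lay among the other KI mice here. The log2 fold change was -3.07 with an SE of 0.40 (adjusted p = 0.00101), and it passed under all 20 alternative settings, with adjusted p between 1.11e-15 and 0.0225. Per Ckm it came to 2.67, 1.21, 1.58, 1.40 and 1.18% in WT 1 to WT 5 and 0.518, 0.905, 0.262, 0.545 and 0.677% in KI 1 to KI 5, again without overlap. Carns1 (ENSMUSG00000075289, chr19:4164324-4175479, GRCm38) overlaps AC109138.8 on its own strand and Gm17552 on the other, so its split of reads is uncertain. Both overlapping genes were lower in KI as well, AC109138.8 going from 2.09 to 5.61 TPM in WT to 0.21 to 0.71 TPM in KI and Gm17552 from 5.54 to 15.2 TPM to 0.29 to 2.41 TPM.

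**Figure D4:**
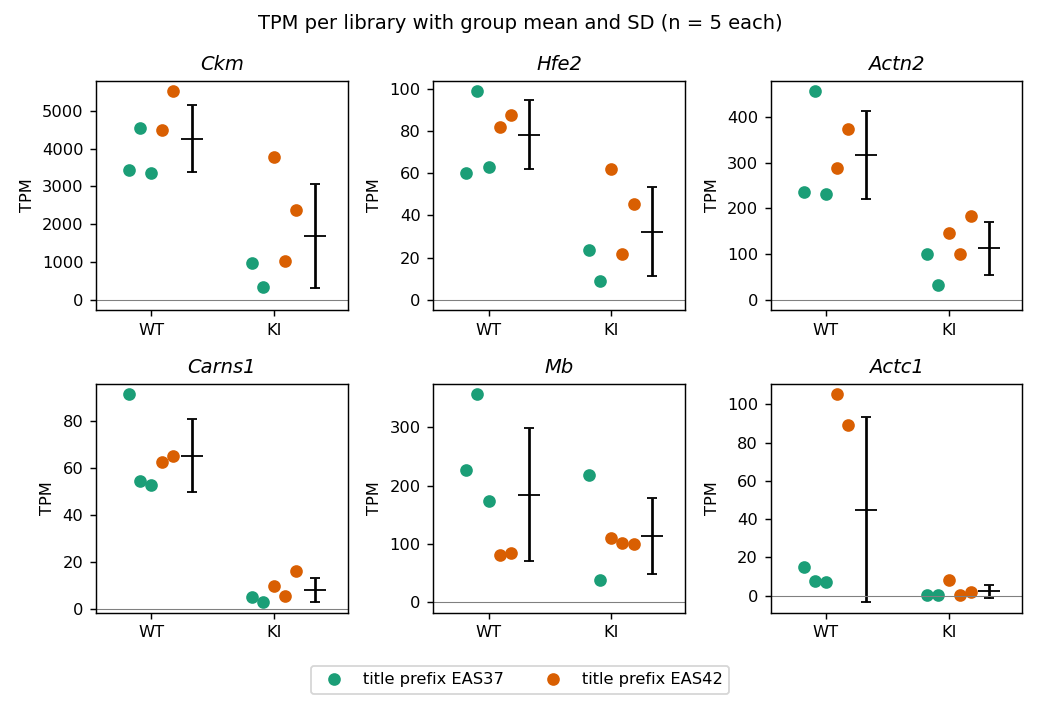
TPM (vertical axes, each from its own scale) of 6 members in the 5 WT and 5 KI libraries, coloured by title prefix, with the group mean and SD as a black bar. Carns1 and Actn2 show no overlap between the groups, KI 3 reaches the WT range of Ckm and Hfe2, and Mb and Actc1 differ between the prefixes among WT mice.

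At the neuromuscular junction Musk, the receptor kinase that clusters acetylcholine receptors, stood at 1.04, 1.94, 0.8, 1.29 and 1.70 TPM in WT 1 to WT 5 and 0.74, 0.24, 0.7, 0.59 and 0.68 TPM in KI 1 to KI 5. Its groups did not overlap by TPM at these low levels, and the log2 fold change was -1.14 with an SE of 0.38 (adjusted p = 0.0417). The call was lost under 10 of 19 alternative settings, with log2 fold changes between -1.35 and -0.84 and adjusted p between 0.0121 and 0.295. Chrna1, the alpha subunit of the muscle acetylcholine receptor, stood at 3.75, 4.60, 3.56, 5.51 and 6.12 TPM in WT 1 to WT 5 and 2.96, 1.36, 4.05, 2.77 and 3.67 TPM in KI 1 to KI 5 and did not pass, with -0.60 with an SE of 0.27 (adjusted p = 0.11).

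Hfe2 (ENSMUSG00000038403, chr3:96525172-96529210, GRCm38), the hemojuvelin gene, stood at 60.2, 98.8, 62.8, 82.1 and 87.6 TPM in WT 1 to WT 5 and 23.8, 8.89, 61.99, 21.7 and 45.2 TPM in KI 1 to KI 5. KI 3 lay inside the WT range and the other 4 KI libraries below it. The log2 fold change was -1.22 with an SE of 0.42 (adjusted p = 0.053), with -1.95 within EAS37 and -0.99 within EAS42. The value lay next to the threshold, and Hfe2 passed without KI 2 (-0.98, adjusted p = 0.0463) or KI 3 (-1.58, 0.0159), with a minimum count of 50 (0.0416), with the prefix as a block (0.0238) and under DESeq2 (0.00813) and limma-voom (0.0221), as well as without KI 2 and KI 3 together, over a range of adjusted p from 0.00813 to 0.209. Per Ckm, Hfe2 came to 1.75, 2.18, 1.88, 1.83 and 1.59% in WT 1 to WT 5 and 2.44, 2.70, 1.65, 2.11 and 1.90% in KI 1 to KI 5. These ratios stayed within a narrow band, with means of 1.84 ± 0.215% in WT and 2.16 ± 0.42% in KI (SD, n = 5 each), and overlapped, so Hfe2 followed creatine kinase across libraries that differed widely in both.

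To compare members at a like amount of muscle RNA, the mean log2 CPM of Acta1, Ttn, Neb and Ckm in each library was put into the model, and the other 30 members tested were read from it. Of these 30 only Carns1 passed, at -2.38 (SE 0.41, adjusted p = 0.0194), while 1.11% of all genes passed as lower and 2.07% as higher. The call of Carns1 was lost without KI 2 (-2.54, adjusted p = 0.0959), KI 3 (-2.07, 0.141) or KI 4 (-2.31, 0.0501) and without KI 2 and KI 3 together (-2.05, 0.648), with the same sign throughout. In these fits few genes of any kind passed as lower, at 0.0911%, 0.0399%, 0.354% and 0% of all genes, in that order. Hfe2 came to -0.16 (SE 0.13, adjusted p = 0.508), Mybpc1 to -0.21 (SE 0.17, adjusted p = 0.532) and Actn2 to -0.39 (SE 0.21, adjusted p = 0.327). Errors were wider for Actc1, at -2.25 (SE 1.46, adjusted p = 0.432), Myh4, at -0.46 (SE 0.99, adjusted p = 0.836), and Tnnt1, at -1.59 (SE 0.79, adjusted p = 0.294). With the title prefix added to this model 4 members passed as lower, Carns1 (-2.44, adjusted p = 0.0381), Actc1 (-3.76, 0.0415), Tnnt1 (-2.53, 0.0256) and Ampd1, while 3.52% of all genes passed as lower. The median of the 30 was -0.19 in this model. The 4-gene level itself ran from 11.0 to 11.7 log2 CPM in WT and from 8.10 to 11.2 in KI, so its effect and that of the genotype cannot be fully told apart.

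**Figure D5:**
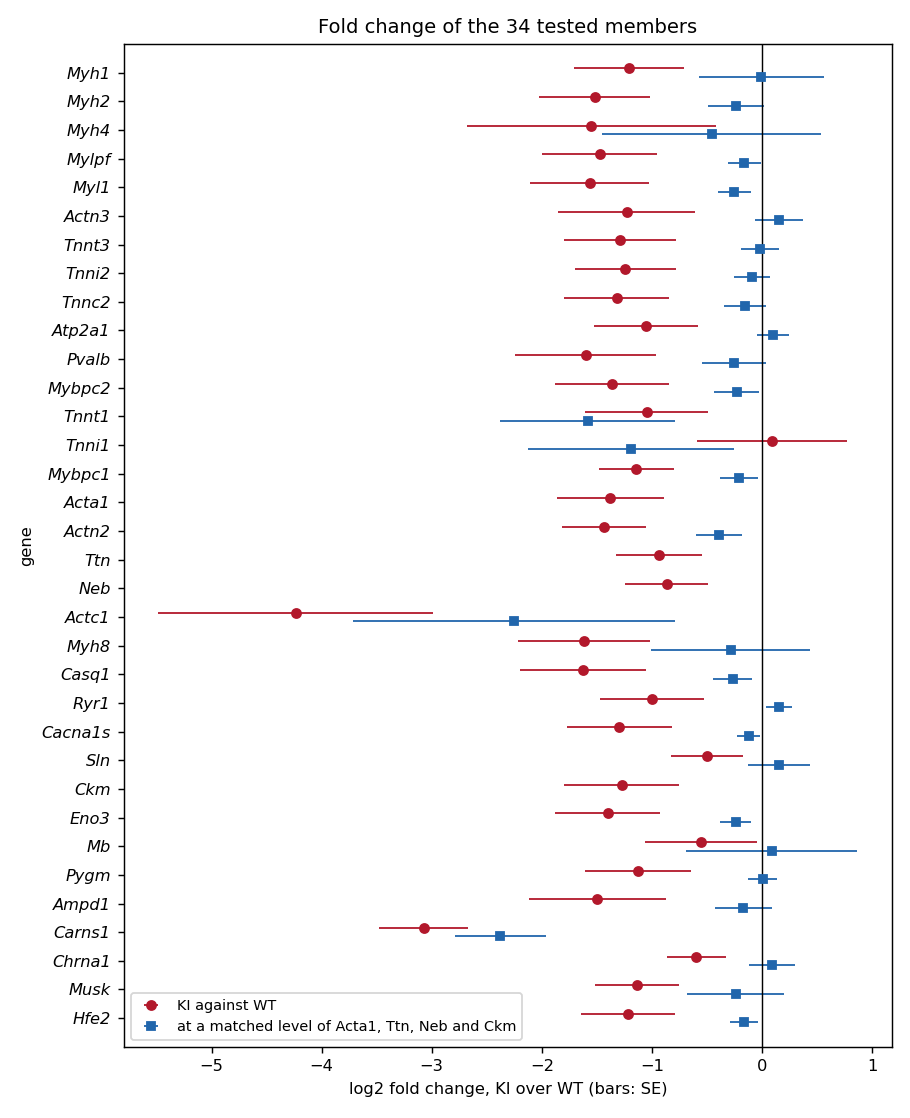
Log2 fold change of KI over WT (horizontal axis, bars are SE) for the 34 members tested (rows), from the comparison of the groups (red circles) and at a matched level of Acta1, Ttn, Neb and Ckm (blue squares, those 4 left out). Most red circles lie between -1.60 and -0.50 and most blue squares near 0, and Carns1 and Actc1 stay below -2 in both.

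The wider muscle programme was read from 94 other genes in 7 lists. Of the 89 tested, 38 passed as lower and 2 as higher, while 15.3% of all genes passed as lower and 15.6% as higher. The median log2 fold change of the 89 was -1.06. Counts of the single lists, all of them short, stand against the same shares. The lower count of the 89 was 57 without KI 3 and 14 without KI 4, where 15.8% and 10.5% of all genes passed as lower. Levels of the named genes follow as mean and SD over 5 libraries per group. Among sarcomere and Z disc genes 13 of 25 were lower, among them the embryonic myosin Myh3 (0.69 ± 0.456 TPM in WT and 0.114 ± 0.0643 TPM in KI). The 1 that was higher is the tropomyosin Tpm3, also made outside muscle (153 ± 11.1 TPM in WT and 199 ± 14.6 TPM in KI). Coupling genes were lower in 3 of 14, among them the channel subunit Cacnb1 (56.04 ± 8.32 TPM in WT and 19.9 ± 13.1 TPM in KI) and the calsequestrin of slow and cardiac fibres Casq2 (33.3 ± 8.90 TPM in WT and 17.9 ± 6.65 TPM in KI). Metabolic genes were lower in 5 of 15, such as the muscle phosphoglycerate mutase Pgam2 (574 ± 119 TPM in WT and 204 ± 133 TPM in KI) and the mitochondrial ADP/ATP carrier Slc25a4 (553 ± 68.5 TPM in WT and 287 ± 134 TPM in KI).

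Junction genes were lower in 5 of 8, led by the receptor subunit Chrnb1 (21.1 ± 4.32 TPM in WT and 8.38 ± 2.44 TPM in KI) and the acetylcholinesterase Ache (31.4 ± 7.92 TPM in WT and 13.7 ± 7.25 TPM in KI). Myogenic regulators were lower in 6 of 11 and higher in 1, Tnfrsf12a, with the MEF2 factors Mef2a (44.9 ± 2.51 TPM in WT and 30.6 ± 6.75 TPM in KI) and Mef2d (50.7 ± 2.998 TPM in WT and 35.3 ± 8.21 TPM in KI) among the lower. Of 7 atrophy and denervation genes 2 were lower, the cell adhesion molecule Ncam1 (5.67 ± 0.916 TPM in WT and 2.65 ± 1.02 TPM in KI) and the muscle ubiquitin ligase Trim63 (43.01 ± 16.4 TPM in WT and 18.4 ± 10.2 TPM in KI). Of 9 genes of hemojuvelin partners and its pathway 4 were lower, including the receptor neogenin, Neo1 (18.6 ± 1.29 TPM in WT and 12.4 ± 1.34 TPM in KI), and the ligand Bmp6 (4.47 ± 0.911 TPM in WT and 2.01 ± 0.747 TPM in KI). The other 5 did not pass and had positive log2 fold changes, from 0.04 for Bmpr1a to 0.34 for Rgma. The median of the 9 was 0.04. At the matched muscle level Neo1 (-0.45, adjusted p = 0.0197) and Chrnb1 (-0.77, adjusted p = 0.0403) alone of the 89 passed, and 1.11% of all genes passed there as lower.

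The 10 genes outside these lists had the most similar pattern to the mean log2 CPM of the 34 members, with Pearson correlations of 0.993 to 0.997 over the 10 libraries, given without a test since libraries and depth are shared. They are Sh3bgr, Sypl2, Tmod1, Mylf-ps, Cap2, Unc45b, Smyd1, Mlip, Yipf7 and Nexn. Tmod1 caps thin filaments, Unc45b is a chaperone of myosin and Nexn a Z disc protein, and Mylf-ps is annotated as a processed pseudogene.

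Markers of other cell types of the skin also differed between the groups, and the order of KI libraries was like that of muscle for some lists only. Over all genes, 15.3% passed as lower and 15.6% as higher. Passing as lower were 7 of 9 smooth muscle markers (summed level 671 to 1048 TPM in WT and 279 to 536 TPM in KI; without Des, which skeletal muscle also makes, 354 to 427 TPM in WT and 210.1 to 255 TPM in KI), 6 of 8 adipocyte markers (2284 to 3272 TPM in WT and 773 to 1489 TPM in KI), 7 of 7 Schwann cell markers (628 to 1752 TPM in WT and 159 to 469 TPM in KI), 6 of 6 endothelial markers (72 to 94.2 TPM in WT and 36.98 to 57.3 TPM in KI) and 3 of 6 fibroblast markers (2688 to 5774 TPM in WT and 1232 to 2902 TPM in KI). Within KI the adipocyte and fibroblast sums were highest in KI 4, at 1489 and 2902 TPM, whereas the muscle sum was highest in KI 3. The Schwann cell and endothelial sums were led by the same libraries as muscle, KI 3 (469 and 57.3 TPM), KI 5 (451 and 52.5 TPM) and KI 4 (360 and 47.9 TPM). Smooth muscle without Des was highest in KI 3 as well. The keratinocyte sum was lowest in KI 3 (11437 TPM) and highest in KI 1 (19409 TPM). Krt14, its largest part in KI, stood at 5942 TPM in KI 3 and 11799.5 TPM in KI 1. WT 2, the second highest in muscle, was the lowest WT library in fibroblast markers. Keratinocyte markers were higher in 2 of 6 (9415 to 11169.8 TPM in WT and 11437 to 19409 TPM in KI), Krt14 and Krt1. Krt5, Krt10, Trp63 and Dsg3 did not pass, with log2 fold changes of -0.04, 0.03, 0.07 and 0.31. The mean of Krt14 was 3473 TPM in WT and 8613 TPM in KI, so the sum largely holds this rise. Hair shaft markers passed in 0 of 6 and ranged from 1.52 to 1558 TPM in WT, with the top value in WT 2, the mouse highest in Myh1, Acta1 and Myh8, and reached 313 TPM in KI 2. The part of these shifts in the muscle values was not tested, nor was the part of muscle RNA in these sums. At the matched muscle level Synpo2 and Lmod1, from the smooth muscle list, went from -1.30 and -1.19 to -0.34 and -0.24. Synpo2, which stays in the sum without Des, was lowest in KI 2 (5.54 TPM) and highest in KI 3 (29.1 TPM), like the muscle sum. Lmod1 was lowest in KI 2 (1 TPM) and highest in KI 5 (6.18 TPM). Acta2 and Myh11 went from -0.93 and -1.68 to -0.78 and -1.16. Of the adipocyte list, Car3 went from -1.60 to -0.83 and Adipoq from -1.39 to -1.44. Car3 was lowest in KI 2 (113 TPM) and highest in KI 3 (500 TPM), and Adipoq was lowest in KI 1 (16.3 TPM) and highest in KI 4 (57.4 TPM).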

How the data were processed

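mRNA of skin from 5 WT and 5 KI mice was sequenced with 1 stranded library per mouse, and the submitters' processing notes name STAR 2.5.2b, Picard 2.8.1 and DESeq2 1.14.1 and the build GRCm38. The names of the deposited tables give RSEM, and its version, its annotation and its strand setting are unknown from the sources used here. Per gene, the authors deposited, per the file headers, expected counts, TPM and FPKM for each library. Expected counts are RSEM's estimates and share ambiguous reads among genes. FPKM was not used. Gene names and coordinates are those of GENCODE M21. Most members overlap another annotated gene, mainly on the other strand, and with the strand setting unknown their reads cannot be told apart.

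Expected counts were rounded and tested with edgeR 4.0.16 in R 4.3.3 (TMM scaling, robust quasi-likelihood, filterByExpr with a minimum count of 10 and a minimum total of 15, which kept 17321 genes), with Benjamini-Hochberg adjustment over all of them and a threshold of 0.05. Adjusted p-values below are from this test unless another tool is named. The matched fit added the mean log2 CPM (prior count 2) of 4 muscle genes. Alternatives used DESeq2 1.42.0, limma-voom 3.58.1, other scalings and filters, the title prefix, and fewer libraries. On simulated counts for 17321 genes the test recovered 20.9% of 1.5-fold, 64.2% of 2-fold and 93.9% of 4-fold changes, with 2 false calls. The changed genes were drawn from well-counted genes outside all lists used here, and each simulated gene varied on its own. Members were not among them and moved together between mice, so these rates need not hold for the members.

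Depth was 18.96 to 26.43 M counts. Members and lists were chosen with earlier results of these data known. Genes named in full are those past the threshold, the 5 myosin heavy chains, Hfe2, Carns1, Actc1 and the highest member of each role, with up to 2 of smallest p from each other list and the 10 of most similar pattern. Values of other members given by library (Mylpf, Mb, Sln, Tnnt1, Tnni1, Tnnc1, Myl3) were chosen after they were seen. Replicate numbers follow accession order and pair nothing. p-values measure the spread between these mice.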

Additional observations from a re-analysis of the deposited data

Results flagged for a closer look

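Among 76 groups of 5 libraries, 6 held 1 library far from the other 4 in log2 CPM (Dixon's test). The test flags about 1 in 20 groups by chance when groups are independent. These are not, since the genes vary together over the same 10 libraries, so the number 6 was not read against that rate. KI 2 was the low library of 4 genes. It stood at 9.56 for Myh1, with the other KI libraries at 11.5 to 12.13, and at 6.81 for Mybpc1, with the others at 8.33 to 8.95. For Actn2 it stood at 6.10, with the others at 7.68 to 8.28, and for Myh8 at 3.27, with the others at 4.75 to 5.34. WT 4 was the high library of 2 slow fibre genes, at 5.01 for Myh7, with the other WT libraries at -3.48 to -2.90, and at 2.10 for Tnnc1, with the others at -2.81 to -1.45.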

How the results depend on the processing

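No paired analysis was possible because the mouse numbers in the titles pair no samples of the 2 genotypes. The count of members lower in KI (8) was 2 with no filter, 14 with a minimum count of 50, 24 with the title prefix as a block, 5 within EAS37 alone, 25 with DESeq2, 20 with limma-voom and 25 without KI 2 and KI 3 together, and ran from 2 to 26 when single libraries were left out. Within EAS37 alone 1 member, Tnni1, was higher. The lower related muscle genes (38) numbered 16 with no filter, 60 with the block, 18 within EAS37, 15 within EAS42 and 58 with DESeq2, and 14 to 57 with single libraries left out. Calls among all genes numbered 2488 within EAS42. The share of all genes passing as lower was 6.94% with no filter, 17.8% with a minimum count of 50, 13.4% within EAS37 and 7.26% within EAS42. It was 19.4% with the block, 18.8% with DESeq2 and 16.5% with limma-voom. Within EAS37 15% of all genes passed as higher. At the matched muscle level 4 members passed with the prefix added, 0 without KI 2 and KI 3 together, and 0 to 1 with single libraries left out. The share of all genes passing as lower in these fits was 3.52%, 0% and 0.0399 to 2.3%.

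Directions turned for Tnnt1 within EAS37 (0.22), Mb within EAS42 (0.26) and Tnni1 within EAS42 (-1.54), without KI 2 and KI 3 together (-0.19) and over single libraries left out (-0.42 to 1.006). At the matched level they turned for Myh4 (-2.16 to 0.24) and Mybpc1 (-0.38 to 0.075) over single libraries left out, and without KI 2 and KI 3 together for Mybpc1 (0.045), Hfe2 (0.16) and Actn2 (0.29). The cause was not tested. The removal of KI 2 and KI 3 was chosen after seeing the data.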

Other observations

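Of the 11 tested genes of myogenic regulators and satellite cells, Myog, chosen here after its values were seen, had the most negative log2 fold change. Myog, the factor that drives differentiation of myoblasts, stood at 11.3 ± 6.68 TPM in WT and 2.60 ± 1.59 TPM in KI (SD, n = 5 each; log2 fold change -2.05, edgeR adjusted p = 0.0151), with WT 4 and WT 5 the highest at 16.9 and 19.7 TPM. The fusion gene Mymk had 187 expected counts over the WT libraries and 27 over the KI libraries, and its partner Mymx had 50 and 4. Chrng, the fetal subunit of the acetylcholine receptor, had 26 and 5. Mymk, Mymx and Chrng held too few counts to be tested. Myod1 (-0.60, edgeR adjusted p = 0.191), Myf5 (-0.69, 0.549) and Pax7 (-0.92, 0.142), factors of muscle progenitors, did not pass.

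Nppb, a natriuretic peptide gene from the list of cardiac markers, went the other way and had 35 expected counts over the WT and 918 over the KI libraries (log2 fold change 4.70 with an SE of 0.88, edgeR adjusted p = 0.00464). KI 5 was the lowest KI library at 6.94 TPM and WT 2 the highest WT library at 3.02 TPM.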
